A study of Rattus norvegicus with 18 samples.

Results

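The miR-200 family and miR-205 were followed in rat heart. All listed miRNAs named miR-200a, miR-200b, miR-200c, miR-141, miR-429 or miR-205, with either arm, were taken, which gave 9 of the 599 listed miRNAs. Small RNA had been sequenced from heart tissue in 18 libraries, 6 from spontaneously hypertensive rats given QDG (called QDG here), 6 from spontaneously hypertensive rats labelled as hypertension (SHR) and 6 from Wistar Kyoto rats labelled as normal (WKY). The QDG and SHR groups share a strain, and the design text names NS or QDG as what SHR animals were given. What QDG and NS stand for, and the age, sex, dose and duration, were not known for this work. The labels do not state that each library came from a separate rat. If some did not, the p-values reflect library-to-library spread alone, which may be partly technical.

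The miR-200 family is known from epithelial cells, where its members repress the transcription factors Zeb1 and Zeb2 and so help to keep cells in an epithelial state. miR-205 acts on the same factors and marks stratified epithelia. Heart muscle, fibroblasts and blood vessels are not epithelial, and these miRNAs are known for low levels there. The family divides by its seed, the stretch from base 2 to base 8 that pairs with target messages.

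The family comes from a pair of loci, and its mature sequences and hairpins show which members could share targets or reads. Of the 9 miRNAs, 6 had a mature sequence in the RefSeq table for the rat build GRCr8, and the hairpins of all 6 names were matched. No label or header names the authors' build, so positions are RefSeq's own. Mature sequences are shown 5′ to 3′ with the seed in capitals, except that of miR-141-5p, whose seed is CCAUCUU.
miR-200c-3p: uAAUACUGccggguaaugaug
miR-141-3p: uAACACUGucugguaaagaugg
miR-205: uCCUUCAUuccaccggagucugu
miR-200a-5p: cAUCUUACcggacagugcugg
miR-200b-5p: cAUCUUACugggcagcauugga
Counted from the 5′ end with the base of miR-200c-3p first, miR-200c-3p and miR-141-3p differed by U4C in the seed and by C9U, G11U and U17A outside it, and had the same letter at 17 of 21 positions. The 5p arms of miR-200a and miR-200b shared their seed and 16 of 21 letters. miR-205 had the same letter as miR-200c-3p at 5 of 21 positions.

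miR-200a-3p, miR-200b-3p and miR-429 are shown through their hairpins, with the 7 letters of the miR-200c-3p or miR-141-3p seed in capitals where a search of the given strand found them.
Mir200b, chr5:171931495-171931589, minus strand: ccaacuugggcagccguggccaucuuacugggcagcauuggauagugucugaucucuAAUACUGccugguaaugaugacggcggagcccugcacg
Mir200a, chr5:171930717-171930805, minus strand: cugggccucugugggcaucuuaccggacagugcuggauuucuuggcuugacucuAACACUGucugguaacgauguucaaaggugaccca
Mir429, chr5:171929682-171929766, minus strand: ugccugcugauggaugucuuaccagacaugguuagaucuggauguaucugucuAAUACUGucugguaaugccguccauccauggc
The Mir200b and Mir429 hairpins thus held AAUACUG, as miR-200c-3p does, and the Mir200a hairpin held AACACUG, as miR-141-3p does. After the seed, Mir200b reads ccugguaaugaug and miR-200c-3p ccggguaaugaug. Mir200a reads ucugguaacgaug there and miR-141-3p ucugguaaagaug. These stretches are nearly identical within each pair, although the loci lie on different chromosomes. How reads that match both members of a pair were assigned was not stated. AAUACUG occurred in 4 of 419 rat hairpins (0.955%), the other being Mir145, and AACACUG also in 4, the others being Mir3575 and Mir3587.

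The Mir200b, Mir200a and Mir429 hairpins lie within 1908 bases on chromosome 5, inside the annotated span of the protein-coding gene Ttll10 and of the long non-coding RNA LOC106182250. The Mir200c hairpin, chr4:159209965-159210033, and the Mir141 hairpin, chr4:159209525-159209618, lie within 509 bases on chromosome 4, on the minus strand, between Phb2 and Ptpn6. Each locus therefore carries both seeds. In the annotation Mir3548 overlaps Mir200a and Mir3575 overlaps Mir200c. The Mir205 hairpin lies alone at chr13:107564535-107564642, with no other annotated gene over it.

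Reads over all miRNAs numbered 6805472 to 8574447 in QDG, 6420666 to 10169581 in SHR and 6465025 to 9463554 in WKY libraries. Levels are the authors' normalized read counts, which follow a scale of reads per 1000000 of a read number particular to the library (RPM). A single read was worth 0.135 to 0.225 RPM, so that 1 RPM stood for only a handful of reads. The 4 heart muscle markers miR-1-3p, miR-133a-3p, miR-208a-3p and miR-499-5p were each measured and together reached 156118 to 203221 RPM in QDG, 173318 to 199213 RPM in SHR and 136912 to 164215 RPM in WKY libraries. All 9 miRNAs together reached 60.2 to 82.9 RPM in QDG, 65.7 to 91.1 RPM in SHR and 56.7 to 78.8 RPM in WKY libraries, which was 0.00393% to 0.00641% of reads. They were a trace component of each library.

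A filter of at least 1 RPM in at least 6 libraries left 410 of the 599 miRNAs for testing and 6 of the 9. miR-200c-3p alone held 56.0% of the 7268 reads over the 9 miRNAs and ranked 181 of 599 by mean level. It was followed by miR-200a-3p with 19.3% (rank 230), miR-200b-3p with 15% (rank 243), miR-141-3p with 6.34% (rank 292), miR-429 with 1.77% (rank 369) and miR-205 with 1.13% (rank 410). miR-205 passed the filter through 3 QDG and 3 WKY libraries and 0 SHR libraries, and miR-429 through 5 QDG, 1 SHR and 3 WKY libraries.

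The 3 miRNAs below the filter were 5p arms. miR-141-5p had 14 reads in all 18 libraries, miR-200a-5p had 17 and miR-200b-5p had 3. The 3p arm held nearly all reads of each hairpin and exceeded the 5p arm in 18 of 18 libraries. The 5p arm took 2.95% of miR-141 reads (exact 95% binomial interval 1.62% to 4.90%), 1.2% of miR-200a reads (0.70% to 1.91%) and 0.275% of miR-200b reads (0.0567% to 0.801%). miR-200b-5p had 0 reads in the QDG libraries, which at a floor of 3 reads allows a level of up to 0.0918 RPM over that group (exact 95% Poisson limit 0.113 RPM), 1 read in the SHR and 2 reads in the WKY libraries. These intervals and limits cover counting error only, since PCR copies of a molecule cannot be told from separate molecules.

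**Figure D1:**
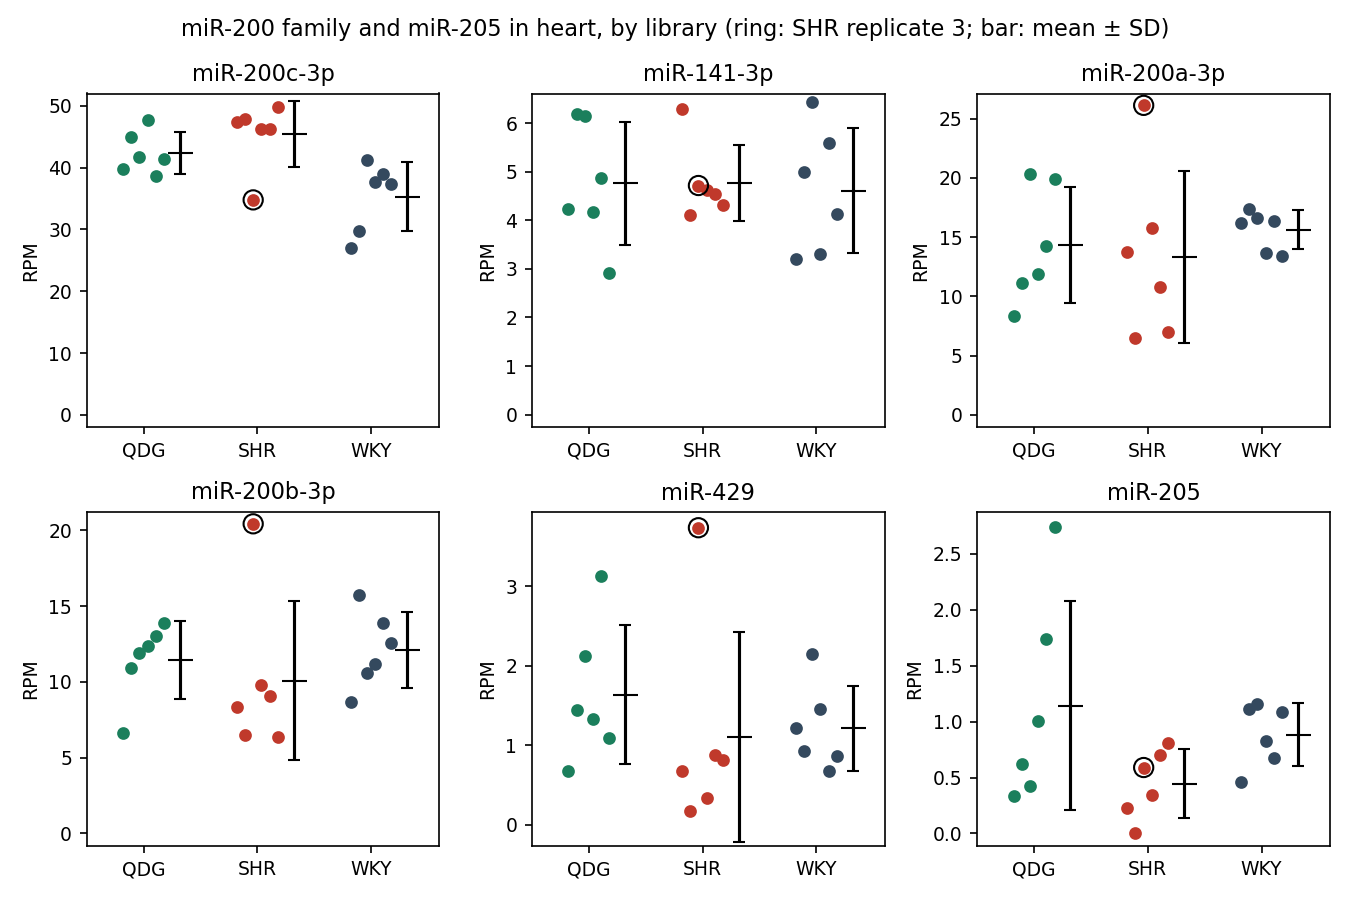
Level of the 6 tested miRNAs in each library (RPM, linear axis), with 1 point per library, the group mean and its SD (n = 6 each). SHR replicate 3, ringed, was the highest SHR library for miR-200a-3p, miR-200b-3p and miR-429 and the lowest for miR-200c-3p.

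Setting SHR against WKY addresses how hearts labelled hypertension differ from hearts labelled normal. Of the 6 tested miRNAs, 1 was higher in SHR and 0 were lower (limma adjusted p under 0.05). Of all 410 tested miRNAs, 8.05% were called higher and 15.1% lower, 23.2% in all. None of the 6 lacked overlap between the groups, against 10.2% of all tested miRNAs (3.41% higher and 6.83% lower). Over the 6, the median log2 fold change was -0.27, beside -0.07 over all tested miRNAs. The balance of calls over all miRNAs moved with scaling, from 33 higher and 62 lower with the authors' values to 52 and 43 with TMM scaling.

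miR-200c-3p, the most abundant member and a product of the chromosome 4 locus, was higher in SHR hearts. It lay between 34.8 and 49.8 RPM with a median of 46.9 RPM in SHR libraries, against 27.0 to 41.2 RPM with a median of 37.5 RPM in WKY libraries. In 5 of 6 SHR libraries it lay above the highest WKY library, and SHR replicate 3, at 34.8 RPM, fell within the WKY range. The means were 45.4 ± 5.38 RPM in SHR and 35.3 ± 5.61 RPM in WKY (SD, n = 6 each), and the log2 fold change was 0.36 ± 0.12 (SE, 95% interval 0.12 to 0.60, limma adjusted p = 0.0238). The change is 1.28-fold. The call depended on single libraries. On leaving out WKY replicate 1 or 2 the limma adjusted p became 0.0501 or 0.0637, and on leaving out replicate 1, 2 or 6 of SHR it became 0.0527, 0.0548 or 0.0539. Without SHR replicate 3 the log2 fold change was 0.43 (limma adjusted p = 0.00637), but that library was picked out after its low level had been seen. In heart tissue, more cells with the miRNA and more of it per cell cannot be told apart, and neither can strain and condition, since each group holds 1 of each.

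miR-141-3p, the neighbour of miR-200c on chromosome 4, showed no detectable difference. It lay between 4.11 and 6.29 RPM in SHR, with a median of 4.58 RPM, and between 3.20 and 6.43 RPM in WKY, with a median of 4.56 RPM. The log2 fold change was 0.06 ± 0.17 (SE, 95% interval -0.29 to 0.41, limma adjusted p = 0.843), an interval that includes the fold change of miR-200c-3p. It rested on 161 reads in SHR and 147 in WKY, against 1572 and 1116 reads for miR-200c-3p, and its spread within groups was about that of counting (16.4% and 28.0% of the mean, against 19.3% and 20.2% from counting alone).

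The chromosome 5 miRNAs had lower means in SHR but wide spread, and none passed the test. miR-200a-3p lay between 6.50 and 26.1 RPM in SHR with a median of 12.3 RPM, and between 13.4 and 17.4 RPM in WKY with a median of 16.2 RPM. Of the SHR libraries, 3 lay below the whole WKY range and SHR replicate 3 lay above it. Its log2 fold change was -0.35 ± 0.26 (SE, limma adjusted p = 0.384). The SD was 54.4% of the mean in SHR and 10.5% in WKY, against 11.7% and 10.9% from counting alone, so the SHR libraries differed among themselves beyond counting error.

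miR-200b-3p followed the same pattern. It lay between 6.35 and 20.4 RPM in SHR with a median of 8.70 RPM, and between 8.69 and 15.7 RPM in WKY with a median of 11.9 RPM. Again 3 SHR libraries lay below the whole WKY range and SHR replicate 3 lay above it. The log2 fold change was -0.32 ± 0.21 (SE, limma adjusted p = 0.306). Without SHR replicate 3 it was -0.54 ± 0.17 and passed the test (limma adjusted p = 0.0228), while miR-200a-3p then had -0.56 and stayed outside it (limma adjusted p = 0.0504). That library was picked out after its levels of these miRNAs had been seen, so leaving it out is no separate support for a lower level. Without SHR replicate 2 or 6 miR-200b-3p had -0.23 in each (limma adjusted p = 0.519 and 0.514). It was called in 1 of 31 alternatives.

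miR-429, the third product of that locus, lay between 0.171 and 3.73 RPM in SHR with a median of 0.742 RPM, and between 0.671 and 2.14 RPM in WKY with a median of 1.07 RPM. These levels stood for 1 to 19 reads per SHR library and 3 to 13 reads per WKY library. The 19 reads came from SHR replicate 3. The log2 fold change was -0.21 ± 0.26 (SE, limma adjusted p = 0.618; without SHR replicate 3, -0.48 and 0.123). Over the alternatives tried it ran from -0.61 in limma-voom to -0.05 with a pseudocount of 5.

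miR-205 was at the edge of detection. It had passed the filter through QDG and WKY libraries and 0 SHR libraries, so its being tested favours a low SHR level. It lay between 0 and 0.810 RPM in SHR with a median of 0.466 RPM, and between 0.458 and 1.15 RPM in WKY with a median of 0.956 RPM, from 16 and 28 reads in all. All 6 SHR libraries lay below the WKY mean of 0.884 RPM, and 3 lay below the whole WKY range. The log2 fold change was -0.40 ± 0.23 (SE, limma adjusted p = 0.241). Its size depended on the pseudocount and the tool, at -0.11 with a pseudocount of 5, -0.89 with 0.2, -0.85 in edgeR, -0.88 in DESeq2 and -1.05 in limma-voom (adjusted p = 0.163 to 0.331). Summed over each group, the exact Poisson intervals were 0.266 to 0.756 RPM in SHR and 0.582 to 1.27 RPM in WKY, which overlap.

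**Figure D2:**
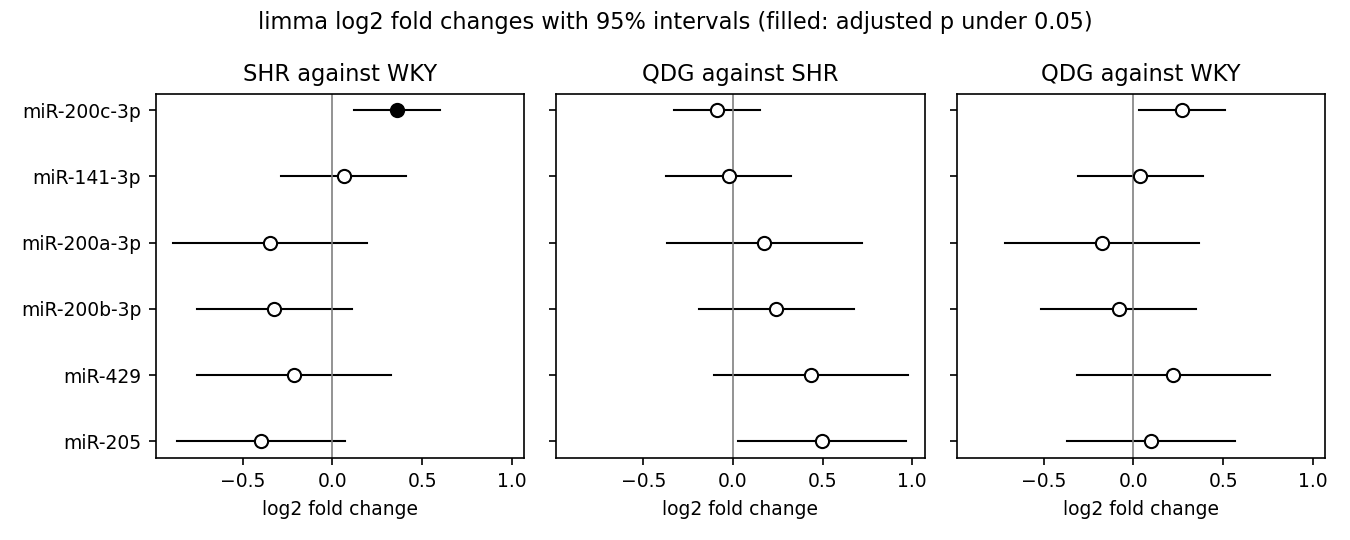
log2 fold changes (x axis, on the scale of RPM plus 1) of the 6 tested miRNAs in the 3 comparisons, with 95% intervals from limma. The only filled point, with an adjusted p under 0.05, is miR-200c-3p in SHR against WKY at 0.36.

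Setting QDG against SHR addresses the effect of QDG in rats of a single strain. None of the 6 passed (0 by limma, 0 by edgeR and 0 by DESeq2, with 1 at an unadjusted p under 0.05 in each), and 0% of all 410 miRNAs were called or lacked overlap (0 called by each tool, with 15 at an unadjusted p under 0.05 in limma, 18 in edgeR and 20 in DESeq2). SHR libraries enter both this comparison and that with WKY. The median log2 fold change over the 6 was 0.21, beside 0.02 over all. miR-200c-3p lay between 38.6 and 47.8 RPM in QDG with a median of 41.6 RPM, within the SHR range of 34.8 to 49.8 RPM. The low end of that range was SHR replicate 3, and the other SHR libraries lay between 46.3 and 49.8 RPM. In 5 of 6 QDG libraries miR-200c-3p lay below the SHR mean. Its log2 fold change was -0.09 ± 0.12 (SE, 95% interval -0.33 to 0.15, limma adjusted p = 0.983). Without SHR replicate 3, picked out after its low level had been seen, it was -0.16 (limma adjusted p = 0.989).

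The chromosome 5 miRNAs varied among QDG libraries too. miR-200a-3p lay between 8.31 and 20.4 RPM in QDG with a median of 13.1 RPM, and miR-200b-3p between 6.61 and 13.9 RPM with a median of 12.1 RPM. QDG replicate 1 was the lowest of its group for both. The log2 fold changes against SHR were 0.18 ± 0.26 and 0.24 ± 0.21 (SE, limma adjusted p = 0.983 for each). miR-429 had 0.678 to 3.13 RPM in QDG with a median of 1.39 RPM, and a log2 fold change of 0.44 ± 0.26 (limma adjusted p = 0.983). Without SHR replicate 3 these 3 fold changes were 0.39, 0.45 and 0.70 (limma adjusted p = 0.952, 0.729 and 0.502). That library was picked out after its high levels of these miRNAs had been seen. Leaving it out raises these fold changes by choice and is no separate support for a difference. miR-141-3p had 2.92 to 6.19 RPM in QDG with a median of 4.55 RPM, and a log2 fold change of -0.02 ± 0.17 (limma adjusted p = 0.983).

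miR-205 was the miRNA with the unadjusted p under 0.05. Since it had passed the filter through 0 SHR libraries, its being tested favours a low SHR level. Its p and the counts of libraries below are therefore no separate support for a difference. It lay between 0.339 and 2.74 RPM in QDG with a median of 0.810 RPM, against 0 to 0.810 RPM with a median of 0.466 RPM in SHR. In 3 of 6 QDG libraries it lay above the highest SHR library. The 38 reads in QDG included 15 from replicate 6 and 10 from replicate 5, against 16 reads in all SHR libraries. The log2 fold change was 0.50 ± 0.23 (SE, limma unadjusted p = 0.0387, adjusted p = 0.983; 0.32 without QDG replicate 6), which failed the correction over all miRNAs. The size was 0.16 with a pseudocount of 5, 0.97 with 0.2, 1.26 in edgeR, 1.30 in DESeq2 and 1.17 in limma-voom (adjusted p = 0.955 to 0.987); the sign was the same in each and the size differed with the method.

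QDG and WKY differ in strain as well as in treatment, and this comparison shares libraries with both others, so its values are given beside theirs and not as separate evidence. None of the 6 passed in limma, with 1 at an unadjusted p under 0.05, against 17.8% of all miRNAs called (7.32% higher and 10.5% lower, or 30 and 43; 50 and 32 with TMM scaling). None of the 6 lacked overlap, against 8.05% of all (3.9% higher and 4.15% lower). The median over the 6 was 0.07, beside -0.06 over all. miR-200c-3p lay above the WKY mean in 6 of 6 QDG libraries and above the highest WKY library in 4, with means of 42.4 ± 3.39 RPM in QDG and 35.3 ± 5.61 RPM in WKY (SD, n = 6 each). Its log2 fold change was 0.27 ± 0.12 (SE, limma adjusted p = 0.118). It passed on the recovered reads in edgeR (0.30, adjusted p = 0.0483) and DESeq2 (0.32, adjusted p = 0.0239), and in limma with TMM (0.35, adjusted p = 0.0203) or RLE scaling (0.31, adjusted p = 0.0366). It did not pass in limma-voom on those reads (0.30, adjusted p = 0.0514). These 4 were the only calls in 31 alternatives, with 0 calls on leaving out 1 library. The fold changes of the others against WKY were -0.17 for miR-200a-3p, -0.08 for miR-200b-3p, 0.22 for miR-429, 0.10 for miR-205 and 0.04 for miR-141-3p (limma adjusted p = 0.612 to 0.886).

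Summed by locus, the balance between chromosome 4 and chromosome 5 products differed among libraries. miRNAs of the Mir200c and Mir141 hairpins made up 56.2% to 73.7% of family RPM in QDG, 43.8% to 79.7% in SHR and 50.4% to 61.6% in WKY libraries. SHR replicate 3 was the lowest of all 18 libraries at 43.8%, and the other 5 SHR libraries, at 66.0% to 79.7%, all lay above the highest WKY library. Such a sum over chosen miRNAs was not tested. How reads that match nearly identical members of both loci were assigned was not stated. The total over the 9 miRNAs was 76.1 ± 8.30 RPM in QDG, 75.5 ± 8.85 RPM in SHR and 70.0 ± 7.67 RPM in WKY (SD, n = 6 each).

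**Figure D3:**
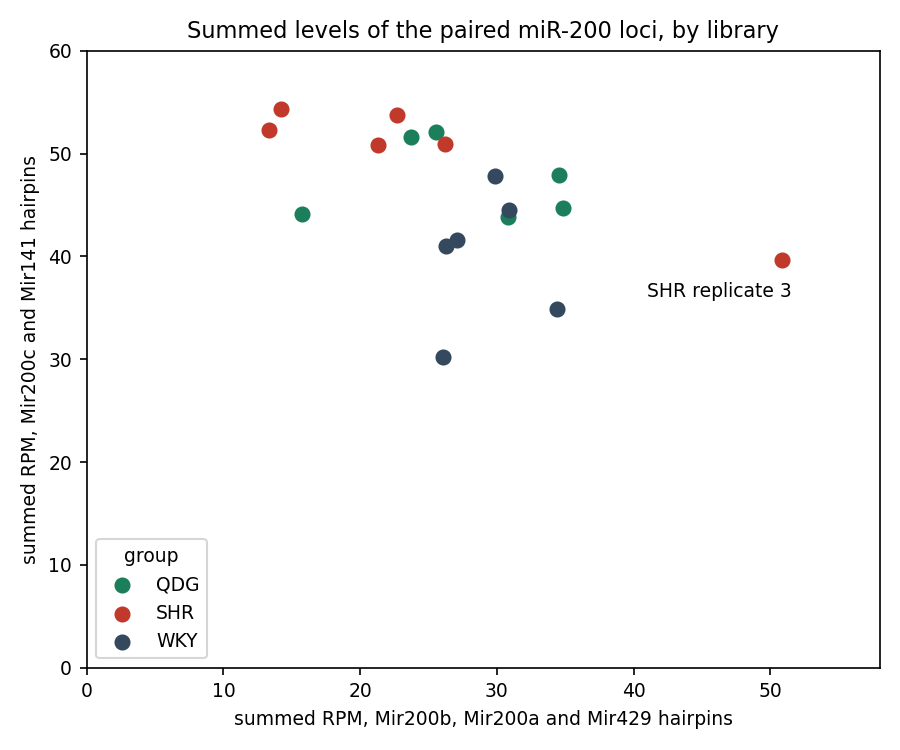
Summed RPM of miRNAs from the Mir200b, Mir200a and Mir429 hairpins (x axis) and from the Mir200c and Mir141 hairpins (y axis), with 1 point per library. SHR replicate 3 lies at 50.9 and 39.7 RPM, while the other 5 SHR libraries lie between 13.3 and 26.2 RPM on the x axis and between 50.8 and 54.3 RPM on the y axis.

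miR-200a-3p and miR-200b-3p varied together from library to library. With group means taken out of log2(RPM + 1), Pearson's r was 0.81 (permutation p = 0.00025) and Spearman's rho 0.63 (permutation p = 0.00521) over 18 libraries. After adjustment over the 15 pairs of members the p-values were 0.00375 and 0.0781. Without the 2 libraries farthest from the median of miR-200a-3p, SHR replicates 3 and 2, r was 0.65, and without SHR replicate 3 alone it was 0.70. Within groups r was 0.77 in QDG, 0.93 in SHR and 0.16 in WKY (n = 6 each), so the relation was not seen in WKY, where miR-200a-3p varied no more than counting alone would give.

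The other pairs had smaller values over the 18 libraries. miR-429 had r = 0.59 with miR-200a-3p and 0.60 with miR-200b-3p (permutation adjusted p = 0.189 for both, Spearman's rho 0.31 and 0.19 with adjusted p = 0.554 and 0.637), which without the 2 farthest libraries were 0.17 and 0.08, so that they rested on those libraries. miR-200c-3p had r = -0.46 with miR-200a-3p (permutation p = 0.0339, adjusted 0.189; rho = -0.42, permutation p = 0.0649, adjusted 0.419), and -0.20 without SHR replicates 3 and 2. miR-200c-3p and miR-141-3p, from the same locus, had r = 0.27 and rho = 0.13 (permutation p = 0.307 and 0.645, adjusted 0.442 and 0.745), with miR-141-3p near the level where counting sets the spread. These values share library and scaling, and were chosen after the levels had been seen.

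**Figure D4:**
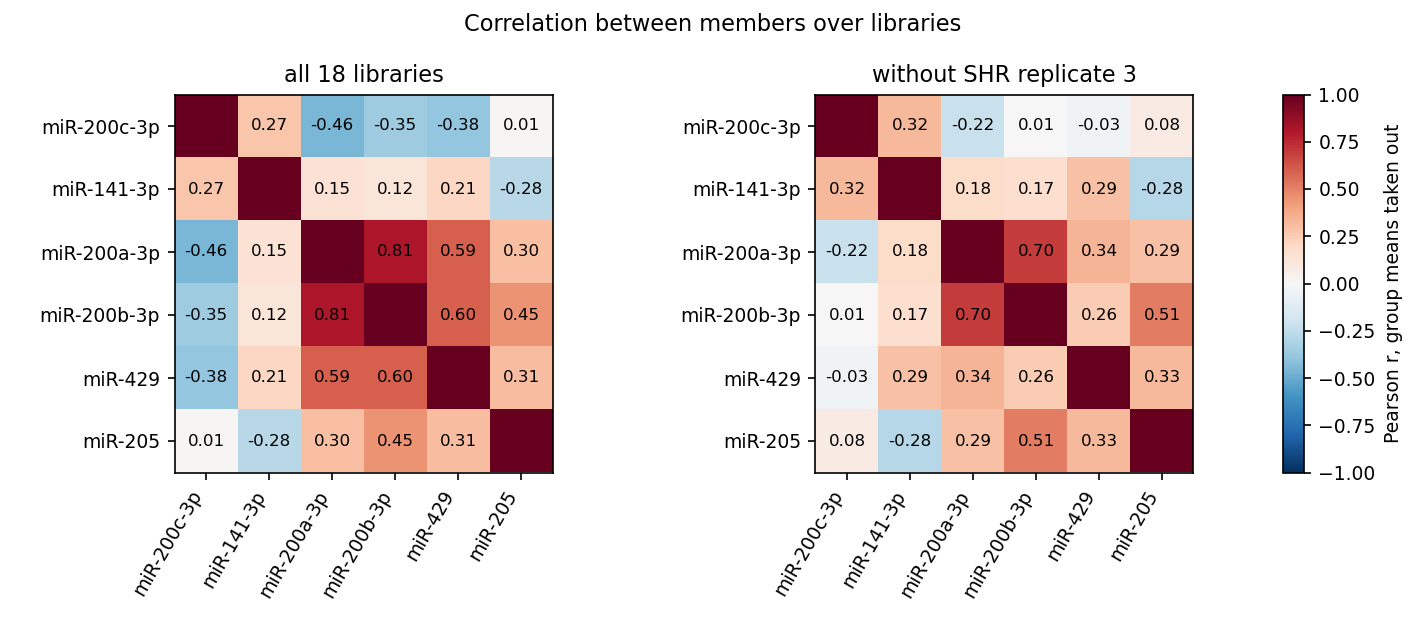
Pearson's r between the 6 tested miRNAs over libraries with group means taken out, on all 18 libraries (left) and without SHR replicate 3 (right), from -1 in blue to 1 in red. The pair miR-200a-3p and miR-200b-3p kept r = 0.70 without that library, and the negative values of miR-200c-3p with the chromosome 5 miRNAs moved to -0.22, 0.01 and -0.03.

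Likeness to other miRNAs was measured as the root mean square difference between z-scores of log2(RPM + 1) over the 18 libraries, where 0 is an identical pattern. The 5 most like miR-200c-3p among 409 others were miR-331-3p (0.632), miR-346 (0.645), miR-378a-3p (0.680), miR-132-3p (0.714) and miR-185-5p (0.716), against a median of 1.40. The locus mate miR-141-3p ranked 104, and miR-200b-3p and miR-200a-3p ranked 333 and 359. For miR-200a-3p, looked at after its values were seen, miR-200b-3p ranked first of 409 at 0.589, followed by miR-495 at 0.744, miR-543-3p at 0.774, miR-509-5p at 0.821 and miR-369-3p at 0.839. miR-429 ranked 11 and miR-200c-3p 406.

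Other measures of SHR replicate 3 were compared with those of the other libraries. Across 372 tested miRNAs with a RefSeq sequence, the deviation of a library from the rest of its group had a Spearman rho with G and C content of -0.26 in SHR replicate 3, where the 18 libraries ran from -0.28 in WKY replicate 2 to 0.42 in SHR replicate 6. miR-141-3p and miR-200c-3p hold 40.9% and 42.9% G and C, below the median of 46.7% of those miRNAs, and miR-205 holds 52.2%. SHR replicate 3 had the lowest summed smooth muscle markers of its group, 42421 RPM against 46797 to 64054 RPM, and the highest summed red blood cell markers, 857 RPM against 509 to 781 RPM. Its endothelial marker miR-126a-3p was also the highest, at 123456 RPM against 111351 to 121731 RPM, and its liver marker miR-122-5p the lowest, at 0.786 RPM against 1.8 to 4.72 RPM. The other epithelial miRNAs summed to 1233.4 RPM in it, against 1133.7 to 1232.9 RPM in the other SHR libraries, a difference of under 1 RPM from the next library. It was not apart in every list. Its heart muscle markers, at 198939 RPM, lay within the 173318 to 199213 RPM of the other SHR libraries. Its leukocyte markers, miR-183 cluster, ciliated cell miRNAs and miR-204-5p also lay within the range of those libraries. The part of these in its miR-200 levels was not tested.

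Other miRNAs known from epithelia were set beside the family, and whether they measure epithelial RNA in heart was not tested. The list of miR-203, miR-375, miR-31, miR-192 and miR-194 entries held 10 listed miRNAs, of which 6 were tested. Of these, 0 were called in SHR against WKY, 0 in QDG against SHR and 0 in QDG against WKY, beside 23.2%, 0% and 17.8% of all tested miRNAs. With 0% called over all miRNAs in QDG against SHR, the 0 there says nothing about the list. The median log2 fold changes of the 6 were 0.16 in SHR against WKY, -0.16 in QDG against SHR and 0.09 in QDG against WKY, beside -0.07, 0.02 and -0.06 over all. miR-192-5p, which is abundant in gut and kidney epithelium, supplied most of their level, with 851 ± 54.2 RPM in QDG, 826 ± 43.4 RPM in SHR and 780 ± 43.7 RPM in WKY (SD, n = 6 each). miR-375-3p, known from endocrine and gut epithelium, had 0.848 to 2.48 RPM in QDG, 1.2 to 2.36 RPM in SHR and 0.924 to 2.6 RPM in WKY libraries. miR-203a-3p, known from skin, had a log2 fold change of 0.09 ± 0.12 in SHR against WKY (SE, limma adjusted p = 0.656).

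The miR-183 cluster and the miRNAs of ciliated cells, which epithelia also express, did differ between SHR and WKY hearts, where strain and condition cannot be told apart. All 3 miRNAs of the miR-183 cluster were higher in SHR than in WKY (medians 1.58 for the list and -0.07 over all miRNAs, of which 8.05% were called higher), with miR-96-5p at 1.58 ± 0.18 and miR-183-5p at 0.98 ± 0.17 (SE, limma adjusted p = 6.88e-08 and 8.28e-05). Summed, they had 33.6 to 51.5 RPM in SHR and 10.6 to 12.6 RPM in WKY. Of 5 tested miRNAs of ciliated cells, the 4 arms of miR-34b and miR-34c were lower in SHR and miR-449a-5p was higher (0.62 ± 0.19, limma adjusted p = 0.0204), beside 15.1% of all tested miRNAs lower and 8.05% higher. In QDG against SHR 0 were called in either list, as over all miRNAs (0%). Against WKY, QDG had 3 of 3 miR-183 cluster miRNAs higher and the 4 arms of miR-34b and miR-34c lower, beside 7.32% higher and 10.5% lower over all. The liver miRNA miR-122-5p had 2.88 to 17.5 RPM in QDG, 0.786 to 4.72 RPM in SHR and 0.610 to 18 RPM in WKY libraries. miR-204-5p, of kidney and eye, averaged 35.2 RPM in SHR and 24.6 RPM in WKY and was higher in SHR (0.50 ± 0.15, limma adjusted p = 0.0134). Of the 4 heart muscle markers, miR-1-3p alone was higher in SHR than in WKY (0.74 ± 0.08, limma adjusted p = 3.34e-08) and 0 were lower. The part of these cell types in the miR-200c-3p difference was not tested.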

How the data were processed

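Total RNA in Trizol from heart was made into libraries with a NEBNext small RNA kit, per the labels' protocols. FastQC, TopHat2 and limma are listed, per the submitters' processing notes, without version or purpose. The build, annotation and treatment of reads that match several miRNAs were not stated in the labels, so values of near-identical miRNAs are uncertain. The deposited values are normalized read counts per the file headers, held as a signal per miRNA. In each library they are whole multiples of a step, and all 10782 of 10782 came out whole (tolerance 0.01 read). The reads over miRNAs exceed the authors' divisor.

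log2(RPM + 1) was fitted with limma (3.58.1, R 4.3.3; trend, robust, no covariate) on 18 libraries and 410 miRNAs that reached 1 RPM in 6 or more libraries, with Benjamini-Hochberg adjustment over all 410 and a threshold of 0.05. Fold changes are on that scale and understate scarce miRNAs. Alternatives were edgeR (4.0.16), DESeq2 (1.42.0) and limma-voom on recovered reads, other scalings, filters and pseudocounts, and libraries left out. On those reads edgeR called 39 higher and 50 lower in SHR against WKY, 0 in QDG against SHR, and 41 higher and 42 lower in QDG against WKY. No 2 libraries of a group agreed within sampling noise (chi-square per degree of freedom at least 45.5). The members and lists were chosen with earlier results of these data known. All 9 members are reported; likeness was planned for the most abundant and the called member.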

Additional observations from a re-analysis of the deposited data

Results flagged for a closer look

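Of 18 sets of 6 libraries (6 miRNAs in 3 groups), 4 held a library far from the others by Dixon's test at 95%, where chance flags about 1 in 20 sets. All 4 were in the SHR group and 3 were in SHR replicate 3. That library had 20.4 RPM of miR-200b-3p, against 6.35 to 9.77 RPM in the other SHR libraries, and 3.73 RPM of miR-429, against 0.171 to 0.873 RPM. Its miR-200c-3p was low instead, at 34.8 RPM against 46.3 to 49.8 RPM in the other SHR libraries. The fourth was miR-141-3p in SHR replicate 1, at 6.29 RPM against 4.11 to 4.71 RPM. miR-200b-3p and miR-429 come from the same locus and are not separate observations.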

How the results depend on the processing

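The rise of miR-200c-3p in SHR against WKY kept its direction in 31 of 31 alternatives (log2 0.28 to 0.46) and its call in 25 (adjusted p = 0.000524 to 0.0729 over all 31). Some of the 31 could not change the direction, because they leave the estimate as it is. These left out a QDG library or changed the filter, the moderation, the groups fitted or the block. The call was lost in 5 of the 18 settings with 1 library left out, each time an SHR or WKY library. The number of members called in SHR against WKY, 1 as reported, was 0 to 2 with 1 library left out and 0 without SHR replicate 5 and WKY replicate 1 together. In QDG against WKY it was 1 instead of 0 with TMM scaling, RLE scaling, edgeR and DESeq2, through miR-200c-3p each time. The cause was not tested. Signs changed in 5 of 18 results, none of them called. miR-141-3p ranged with 1 library left out from -0.014 to 0.15 in SHR against WKY, from -0.094 to 0.082 in QDG against SHR and from -0.038 to 0.14 in QDG against WKY, and without the 2 libraries named above it had -0.0049 in SHR against WKY and -0.038 in QDG against WKY. In QDG against WKY, miR-200b-3p ranged from -0.17 to 0.053 and miR-205 from -0.083 to 0.21.

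No pairing of libraries by replicate number was detected. Same-numbered libraries had correlations of -0.17 to 0.23 in SHR against WKY, -0.13 to 0.12 in QDG against SHR and 0.0041 to 0.20 in QDG against WKY. At most 1 of 6 matched its own number best. With the replicate block 1, 0 and 0 members were called in these comparisons, and miR-200c-3p had an adjusted p of 0.0310 in SHR against WKY. Depth limits miR-429, miR-205 and the 5p arms, with 0 to 19 reads per library.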
